A study of Rattus norvegicus with 4 samples.

Results

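The genes that carry glucose into the secretory cell of the mammary gland and turn it into lactose were followed in 4 arrays of rat mammary gland RNA. They were chosen by name and number 6, namely Slc2a1, Pgm1, Ugp2, Galk1, Slc35a2 and B4galt1, out of 14217 genes named by a probe set with a single gene symbol. Of these 6 genes 5 had a probe set, 8 probe sets in all, and the annotation used here lists none for Galk1, so Galk1 has no value. A probe set is a group of oligonucleotides on an Affymetrix array that reports 1 transcript, and its value is a MAS5 signal, a brightness on a linear scale.

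The 4 groups were the Sprague-Dawley rat (SDR) on day 1 of lactation, the Heterozygous Hirosaki hairless rat (HHR) on day 1 of lactation, the Homozygous Hirosaki hairless rat on day 1 of lactation, and the Sprague-Dawley rat on day 1 of involution, when the gland regresses after milk removal stops. HHR is a hairless mutant strain, and the labels name neither the mutation nor any treatment. Each group had 1 array, and the labels give neither the age of the animals, nor how many contributed to an array, nor the length of lactation before involution. There is therefore no replicate error and no test, and every difference below describes 2 arrays and is given by its size.

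Lactose is made in the Golgi apparatus of the secretory epithelial cell. Glucose enters through facilitative transporters, is phosphorylated, and is turned by way of glucose 1-phosphate into UDP-glucose and UDP-galactose. UDP-galactose is carried into the Golgi, where a galactosyltransferase bound to the milk protein alpha-lactalbumin joins galactose to glucose. Lactose draws water into the secretory vesicles, and its synthesis is a main determinant of milk volume.

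A floor of 91.5, the 40th percentile over the arrays, replaced any smaller signal before a ratio was taken, and a fold against a value under the floor is a lower bound. The genes above the floor numbered between 10368 and 10472 per array. The median signal was 148.0, 149.6, 148.0 and 163.9 in the order of the groups given above, and the Gapdh control had a 3′ signal over its 5′ signal, a ratio that grows with RNA degradation, of 1.17, 1.93, 2.30 and 1.60. All 8 luminal epithelial markers, among them Krt8, Krt18 and Epcam, were above the floor in every array. Of the 5 skeletal muscle markers Myh4, Ckm and Myl1 were under it in every array. Acta1 was above it in every array, and Tnnt3 in heterozygous HHR and involution only, at 116.4 and 120.7.

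The promoters of Slc2a1, Ugp2 and B4galt1 are shown because these are the genes with signals above the floor in every array whose difference in involution exceeded 2-fold. Each line gives the 250 bases upstream of the RefSeq transcript start in build GRCr8, 5′ to 3′ on the strand of the gene, with matches in capitals to GGGCGG on either strand, the GC box bound by Sp1, and to TTCNNNGAA, a palindrome of the kind bound by Stat5 and Stat3.
Slc2a1, chr5:138002272-138002521, plus strand: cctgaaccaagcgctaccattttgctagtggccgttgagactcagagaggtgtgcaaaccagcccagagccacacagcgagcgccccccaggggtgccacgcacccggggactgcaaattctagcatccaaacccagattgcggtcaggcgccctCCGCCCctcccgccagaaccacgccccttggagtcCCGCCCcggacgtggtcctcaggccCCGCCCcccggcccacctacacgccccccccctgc
Ugp2, chr14:99698003-99698252, minus strand: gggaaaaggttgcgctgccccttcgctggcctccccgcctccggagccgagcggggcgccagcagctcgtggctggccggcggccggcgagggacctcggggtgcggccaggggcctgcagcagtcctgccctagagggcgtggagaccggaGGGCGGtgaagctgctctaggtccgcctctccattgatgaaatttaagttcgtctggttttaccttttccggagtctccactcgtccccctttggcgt
B4galt1, chr5:60778446-60778695, minus strand: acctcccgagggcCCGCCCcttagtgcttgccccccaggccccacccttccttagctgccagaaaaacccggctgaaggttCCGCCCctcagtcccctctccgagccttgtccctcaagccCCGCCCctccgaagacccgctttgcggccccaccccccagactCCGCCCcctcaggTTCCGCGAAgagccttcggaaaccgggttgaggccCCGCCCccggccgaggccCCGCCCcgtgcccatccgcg

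The promoters of all 6 genes matched in the RefSeq table. GC content of the 250 bases was 68.4% for Slc2a1, 67.2% for Ugp2, 72.0% for B4galt1, 58.0% for Pgm1, 62.4% for Galk1 and 59.2% for Slc35a2, each above the median of 51.2% over 33469 RefSeq promoters. The GC box occurred 3 times in Slc2a1, 6 times in B4galt1, 2 times each in Pgm1 and Galk1, and once each in Ugp2 and Slc35a2, and 30.5% of all promoters held at least 1. The palindrome TTCNNNGAA occurred in B4galt1 only among the 6, starting 73 bases before the transcript start, and 7.67% of all promoters held it. The E-box CACGTG, searched as a further motif, occurred in Galk1 only among the 6, and 5.59% of all promoters held it. A match describes letters in this window, and the B4galt1 gene is known in mouse to use an additional, downstream start site in the lactating gland, which this window does not cover. The alpha-lactalbumin gene Lalba, which is not one of the 6, held none of the 3 motifs in its 250 bases and had a GC content of 49.6%.

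Slc2a1 encodes GLUT1, the main facilitative glucose transporter of the lactating gland. Its signal was 6331 in SDR lactation, 3554 in the heterozygous and 3292 in the homozygous HHR array, and 1239.9 in SDR involution. SDR lactation was thus the highest array, the HHR arrays lay close together below it, and involution was the lowest. Slc2a1 was 1.78-fold lower in heterozygous HHR and 1.92-fold lower in homozygous HHR than in SDR lactation, both short of 2-fold, with log2 differences of -0.83 and -0.94. Among all genes measured in the same pair of arrays, 6.54% were as low or lower in heterozygous HHR and 3.32% in homozygous HHR. The homozygous and heterozygous arrays differed by 1.08-fold. In involution Slc2a1 was 5.11-fold lower than in SDR lactation, and 1.28% of genes were as low or lower.

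**Figure D1:**
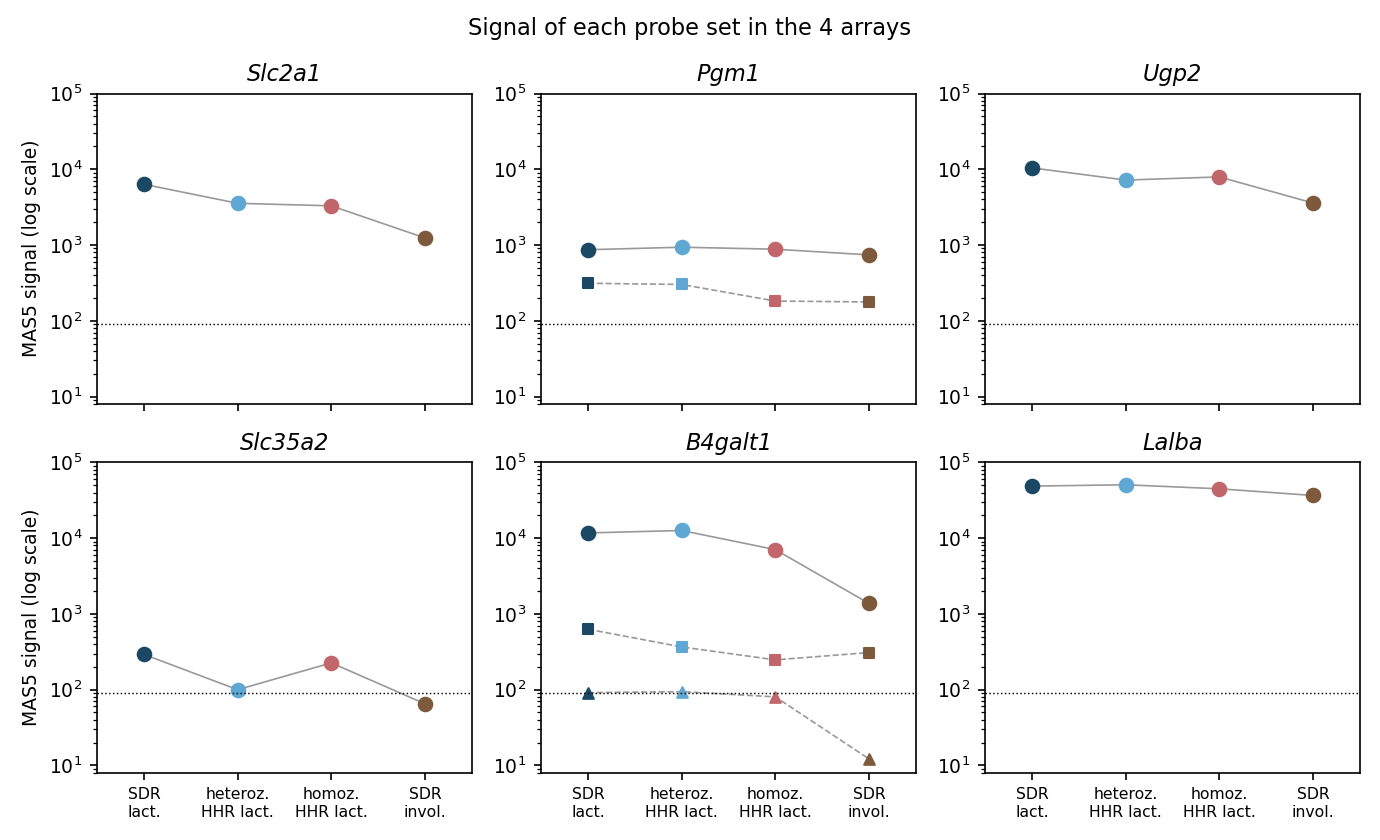
MAS5 signal on a log axis for each probe set in the 4 arrays (lact., lactation; invol., involution), 1 point per array; circles and solid lines are the probe set that represents the gene, squares and triangles its dimmer probe sets, and the dotted line is the floor of 91.5. The representing probe set is lowest in SDR involution in every panel, and B4galt1 spans from 12623 in heterozygous HHR to 1375.5 in involution.

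Pgm1 encodes phosphoglucomutase, which interconverts glucose 6-phosphate and glucose 1-phosphate. Its brighter probe set had signals of 867 in SDR lactation, 936 in the heterozygous and 881 in the homozygous HHR array, and 741 in SDR involution, a span of 1.26-fold over the 4 arrays. This was the flattest profile of the 5 genes. The dimmer probe set had 312, 302, 182 and 177 in the same order, so it was 1.71-fold lower in homozygous HHR and 1.76-fold lower in involution than in SDR lactation. The probe sets therefore differed in homozygous HHR, where the brighter one had a log2 difference of 0.02 from SDR lactation and the dimmer one -0.78, and neither passed 2-fold in any comparison.

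Ugp2 encodes UDP-glucose pyrophosphorylase, which makes UDP-glucose from glucose 1-phosphate. Its signal was 10428 in SDR lactation and 3589.5 in SDR involution, with 7199 in the heterozygous and 7925 in the homozygous HHR array. It was highest in SDR lactation and lowest in involution, with the HHR arrays 1.45-fold and 1.32-fold below SDR lactation. These smaller differences were common among genes, as 14.9% were as low or lower in heterozygous and 17.7% in homozygous HHR. In involution Ugp2 was 2.91-fold lower, and 3.86% of genes were as low or lower.

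Slc35a2 encodes the transporter that brings UDP-galactose into the Golgi. Its only probe set was dim, with 292 in SDR lactation, 99.9 in the heterozygous and 226 in the homozygous HHR array, and 65.0 in involution, the last under the floor. It was 2.92-fold lower in heterozygous HHR than in SDR lactation, and 0.910% of genes were as low or lower. Homozygous HHR was 1.29-fold below SDR lactation and 2.26-fold above heterozygous HHR. In involution it was at least 3.19-fold lower. The heterozygous value lies just above the floor, and with a higher floor at the 55th percentile (198.3) none of these differences passed 2-fold. With the floor value added to each signal as a pseudocount instead, the log2 difference between homozygous and heterozygous HHR was 0.73 in place of 1.18.

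B4galt1 encodes the galactosyltransferase that is the catalytic part of lactose synthase. Its brightest probe set had 11716 in SDR lactation, 12623 in the heterozygous and 7057 in the homozygous HHR array, and 1375.5 in involution. The heterozygous and SDR lactation arrays were close together, homozygous HHR lay below them, and involution was far below all 3 lactation arrays. B4galt1 was 1.66-fold lower in homozygous HHR than in SDR lactation and 1.79-fold lower than in heterozygous HHR, short of 2-fold in each case, and 5.97% and 5.01% of genes were as low or lower in those pairs. In involution it was 8.52-fold lower, and 0.481% of genes were as low or lower.

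The further probe sets of B4galt1 were dimmer, and the next brightest gave another order. It had 628 in SDR lactation, 367 in the heterozygous and 247 in the homozygous HHR array, and 309 in involution, and was lowest in homozygous HHR, not in involution. By this probe set B4galt1 was 2.54-fold lower in homozygous HHR, 1.71-fold lower in heterozygous HHR and 2.03-fold lower in involution than in SDR lactation. The dimmest had 91.4, 94.1, 80.4 and 12.2, in the order of the brightest probe set, but of these the heterozygous value alone passed the floor. All probe sets above the floor thus placed homozygous HHR and involution below SDR lactation, but they disagreed on the heterozygous array and on the size in involution. Where the probe sets lie on the transcript is not used here. With the mean of all probe sets the log2 difference in involution was -1.37 in place of -3.09, and that of heterozygous HHR was -0.21 in place of 0.11. The mean in involution includes the dimmest probe set, which was under the floor in both arrays and so entered with a difference of 0.

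**Figure D2:**
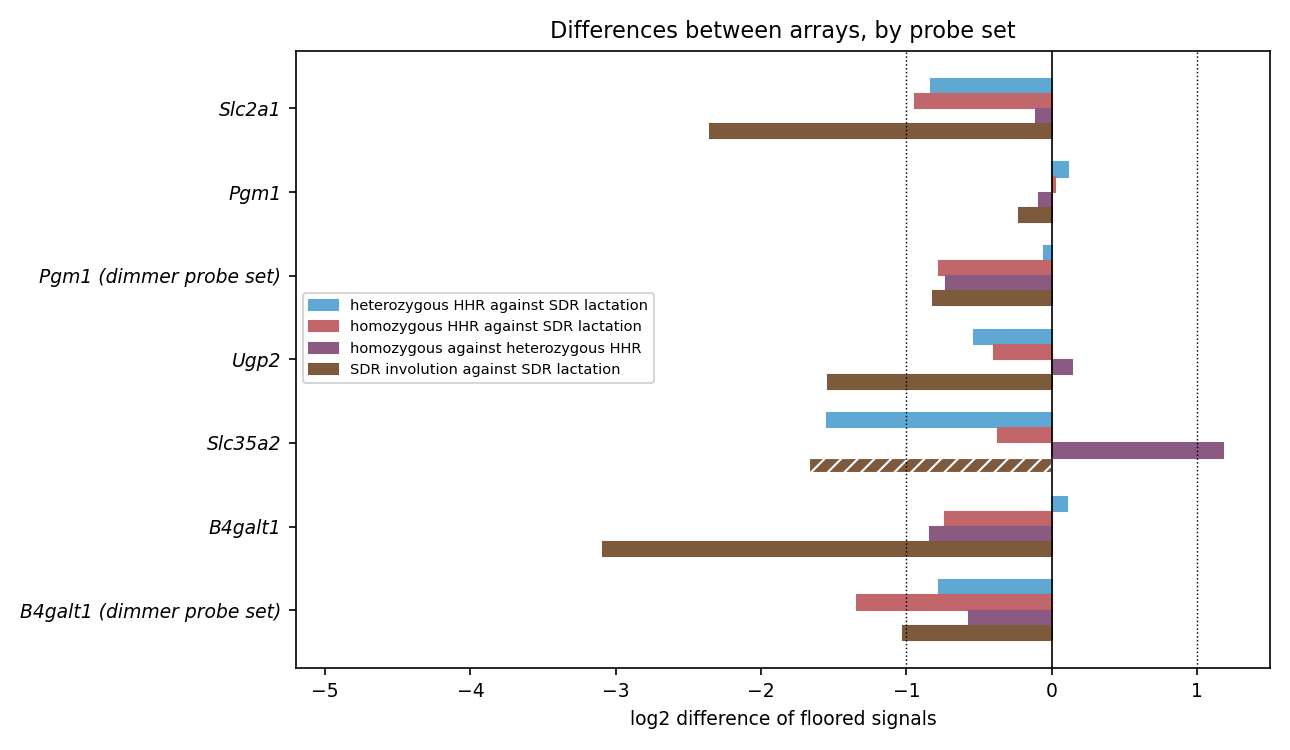
Log2 difference of floored signals for each probe set (rows) in 4 comparisons (bars), with dotted lines at 2-fold; the hatched bar is a lower bound, and the B4galt1 probe set that passed the floor in a single array is left out. The involution bars of Slc2a1, Ugp2, Slc35a2 and of both B4galt1 rows pass 2-fold to the left, and those of the Pgm1 rows do not.

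Lalba encodes alpha-lactalbumin, the milk protein that binds the galactosyltransferase and lets it use glucose as acceptor. Its signal was 48610 in SDR lactation, 50638 in the heterozygous and 44820 in the homozygous HHR array, and 36580 in involution. The log2 differences from SDR lactation were 0.06, -0.12 and -0.41, so no array differed by 2-fold. The brightest probe set of each array had 63449, 65647, 58306 and 47462, the same order as Lalba, and how far this upper end of the signal range bounds its differences was not tested. Between involution and SDR lactation the log2 difference of the regulatory part of lactose synthase was thus -0.41. That of the catalytic part, B4galt1, was -3.09 by its brightest probe set and -1.02 by the next brightest.

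Counted over the 5 measured genes, 4 were at least 2-fold lower and 0 higher in SDR involution than in SDR lactation, with a median log2 difference of -1.67. Over all 11014 genes measured in that pair, 8.94% were at least 2-fold lower and 10.3% higher, and the median was 0.08. The median of the 5 genes is the value of Slc35a2, a bound set by the floor. With floors at the 25th and 55th percentiles the median of the 5 was -2.17 and -1.54. After median centring of the arrays the split of all called genes turned from 985 lower and 1129 higher to 1237 lower and 853 higher. The log2 differences of Slc2a1 and Ugp2 in involution stayed between -2.50 and -2.27 and between -1.69 and -1.39 over 8 settings. Several settings could not change them, as each gene has a single probe set, far above the floors and without a shared-probe suffix. The log2 differences of B4galt1 ran from -3.24 to -1.37, the latter with the mean of all probe sets. Those of Slc35a2 ran from -2.17 to -0.56, and with the floor at the 55th percentile 3 of the 5 genes were at least 2-fold lower. A further set, the brightest 10% of measured genes, was taken after the data were seen. In it 18.2% of 1140 genes were at least 2-fold lower in involution and the median was -0.24. The set was ranked by the mean over the 4 arrays, 3 of them from lactation, so genes high in lactation enter it more readily. Whether the difference in involution depends on brightness was not tested. Within this set 3.16% of genes were as low or lower than Slc2a1, 1.58% than B4galt1 and 9.65% than Ugp2.

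In heterozygous HHR against SDR lactation 1 of the 5 genes, Slc35a2, was at least 2-fold lower and 0 were higher, where 4.15% of 10876 genes were lower and 4.58% higher. In homozygous HHR none passed 2-fold by its representing probe set, where 2.72% of 10866 genes were lower and 3.77% higher. The medians over the 5 genes were -0.53 and -0.40, beside 0.01 and 0.02 over all genes. In the brightest 10% of genes, 1.93% were as low or lower than Slc2a1, 3.42% than B4galt1 and 16.3% than Ugp2 in homozygous HHR. In heterozygous HHR these shares were 4.65%, 64.2% and 13.6%. Between the HHR arrays 1 of the 5, Slc35a2, was at least 2-fold higher in the homozygous one and 0 were lower, where 3.76% of 10877 genes were higher and 3.14% lower. The median over the 5 was -0.09. The comparisons with SDR lactation share that array, so a value of it that is high or low by error enters all 3 of them.

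**Figure D3:**
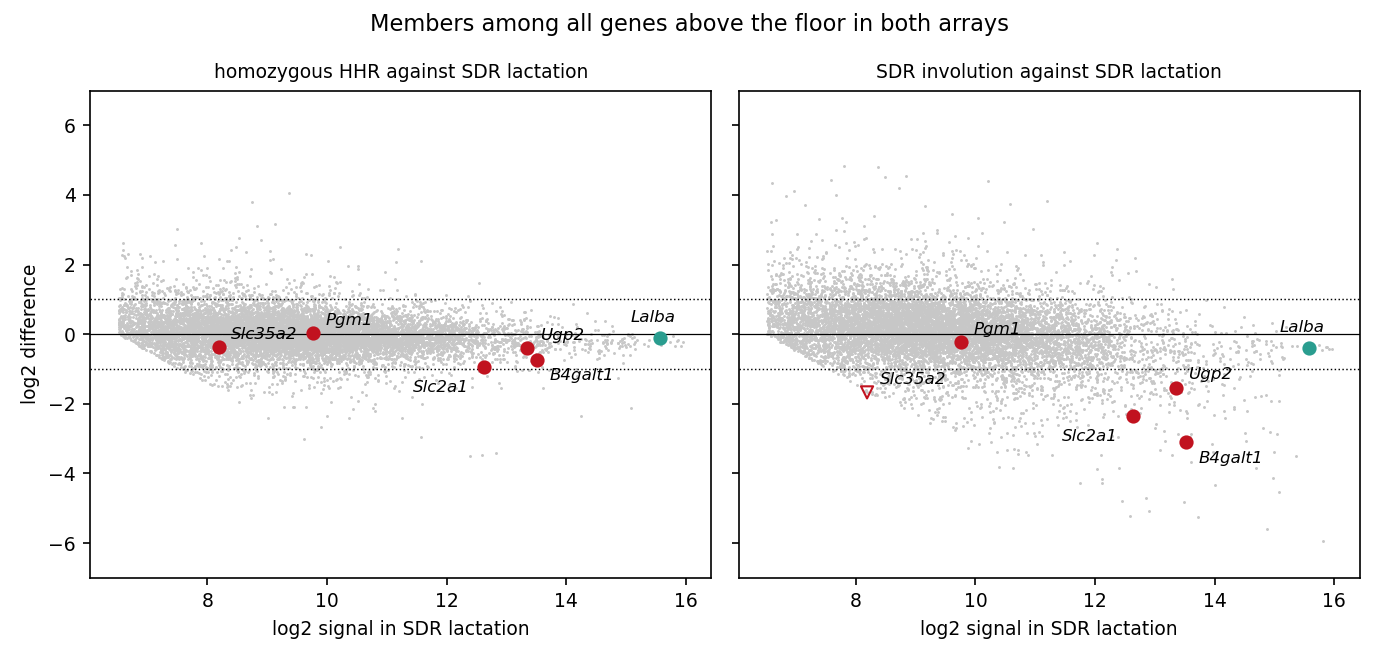
Log2 difference against log2 signal in SDR lactation for all genes above the floor in both arrays (grey), with the 5 measured genes in red and Lalba in green; the open triangle is Slc35a2, under the floor in involution and shown at its bound. Dotted lines mark 2-fold; in the left panel (homozygous HHR) all 5 lie within them, and in the right panel (involution) Slc2a1, B4galt1, Ugp2 and Slc35a2 lie below.

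The other genes of the pathway were taken as 7 lists with 82 entries, of which 69 were on the array. In involution 8 of 59 measured list genes (13.6%) were at least 2-fold lower and 2 (3.39%) higher, with a median log2 difference of -0.01. Over all genes in that pair 8.94% passed 2-fold downwards and 10.3% upwards, and the median was 0.08. In heterozygous HHR and between the HHR arrays 0 of 60 passed 2-fold in either direction, beside 4.15% of all genes lower and 4.58% higher in the first pair and 3.14% and 3.76% in the second, and in homozygous HHR 1 of 61 was lower, Slc5a1, and 1 higher, B4galt5, beside 2.72% and 3.77% of all genes. No count here comes from a test, as each group has 1 array.

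The genes of ion supply to the Golgi held the largest differences of these lists in involution. In the list of Lalba and Golgi calcium and manganese 3 of 5 measured genes were at least 2-fold lower in involution, with a median of -1.12, and 0 passed 2-fold in the HHR comparisons. Tmem165, a Golgi membrane protein needed for manganese-dependent glycosylation, had 8732 in SDR lactation, 7881 in the heterozygous and 7685 in the homozygous HHR array, and 870 in involution. The lactation arrays were close together, and involution was 10.03-fold below SDR lactation. Atp2c2, a Golgi pump for calcium and manganese, had 3771, 3273, 3283 and 624 in the same order and was 6.05-fold lower in involution. Its relative Atp2c1 had 488, 605, 642 and 528, with no difference past 2-fold by that probe set. Slc39a8, a carrier of zinc and manganese into cells, had 10311, 14439, 14237 and 4738, and was 2.18-fold lower in involution and higher in the HHR arrays than in SDR lactation by log2 differences of 0.49 and 0.47.

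Of the other glucose transporters 1 of 7 measured in involution was at least 2-fold lower and 0 higher, with a median of -0.40. Slc5a1, the sodium-coupled glucose transporter SGLT1, had 304 in SDR lactation, 219 in the heterozygous and 146 in the homozygous HHR array, and 68.3, under the floor, in involution. It was 2.08-fold lower in homozygous HHR and at least 3.32-fold lower in involution, in the same order of arrays as Slc2a1. Slc2a4, the insulin-responsive transporter of fat and muscle, had 163, 308, 211 and 174, and Slc2a8, an intracellular transporter, had 337, 348, 347 and 499. Slc2a3, a transporter with high affinity, had 389, 227, 314 and 296, and Slc2a9, which also carries urate, had 206, 297, 164 and 143. None of these 4 genes passed 2-fold by its brightest probe set, while a dimmer probe set of Slc2a3 was under the floor in the last 3 arrays, a log2 difference of at most -1.01.

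Of the genes of hexokinases and glucose 6-phosphate 1 of 6 was at least 2-fold lower in involution and 0 higher, with a median of -0.08. That gene was Hk2, the insulin-inducible hexokinase, with 283, 150, 180 and 73.7, the last under the floor, so it was at least 3.09-fold lower. It falls outside the rule by which genes were named and was chosen after its values were seen. Gpi, which interconverts glucose 6-phosphate and fructose 6-phosphate, had 5235, 5183, 4152 and 3507, within 2-fold. Hk1, the housekeeping hexokinase, had 529, 512, 735 and 869.

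Among 11 galactose and UDP-sugar enzymes 1 was at least 2-fold lower in involution and 0 higher, with a median of 0.01. Pgm3, which works on the phosphates of N-acetylglucosamine, had 660, 442, 412 and 141 and was 4.69-fold lower in involution. Pgm2, which acts mainly on pentose phosphates, had 1641, 2697, 2218 and 1616, and Ugdh, which oxidises UDP-glucose to UDP-glucuronate, had 1288, 1264, 1077 and 1221. Galk2, a relative of Galk1 that acts on N-acetylgalactosamine, had 993, 907, 1383 and 1055. These 3 genes stayed within 2-fold in all 4 comparisons.

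The listed galactosyltransferases went both ways. Of 9 measured genes in the list of galactosyltransferases 2 were at least 2-fold lower and 1 higher in involution, with a median of 0.51. The lower ones were B3galt6 and B3galt4, and the higher one was B4galt5. The list includes Ugcg, which transfers glucose, with a log2 difference of 0.63 in involution, so the median is not that of galactosyltransferases alone. B4galt5, which makes lactosylceramide, had 487 in SDR lactation, 561 in the heterozygous and 975 in the homozygous HHR array, and 1409 in involution. It was highest in involution, 2.90-fold above SDR lactation, and homozygous HHR also passed 2-fold above SDR lactation, by a narrow margin. This order is the reverse of that of the brightest B4galt1 probe set in homozygous HHR and involution, by a single B4galt5 probe set above the floor. The next brightest B4galt1 probe set, at 247 and 309 in these arrays, was higher in involution than in homozygous HHR, as B4galt5 was. B4galt3 had 465, 601, 553 and 918, a log2 difference of 0.98 in involution. That of B4galt4 was 0.51, that of B4galt6 0.67 and that of B4galt7 -0.74, and B4galt2 was under the floor in every array. B4galt2, B4galt4 and B4galt6 were named after their values were seen. B3galt6, an enzyme of the proteoglycan linker, had 303, 200, 191 and 128 and was 2.37-fold lower in involution. Its relative B3galt4, named after its values were seen, had 196, 116, 121 and 7.90, the last under the floor, and was at least 2.14-fold lower. C1galt1, which makes the core of O-linked glycans, had 3261, 5104, 5195 and 2528 by its brightest probe set, with a log2 difference of -0.37 in involution, where its other probe sets had -1.07 and -1.26.

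The list of Golgi nucleotide sugar transporters other than Slc35a2 was drawn from the Slc35 family, and not every entry is an established carrier of this kind. Of 12 measured, 0 were at least 2-fold lower and 1 higher in involution, with a median of -0.48. The higher one was Slc35d2, with 151, 195, 215 and 392, a 2.60-fold difference. Slc35b1 had 3903, 3188, 2558 and 2060 by its brighter probe set, with a log2 difference of -0.92 in involution, where the other probe set had -0.10. Slc35c1, the carrier of GDP-fucose, had 2386, 1895, 2203 and 2927. Of 9 glycogen genes 0 passed 2-fold in any comparison, with a median of 0.32 in involution, and Pygb, brain glycogen phosphorylase, had 1968, 1592, 1869 and 1994.

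**Figure D4:**
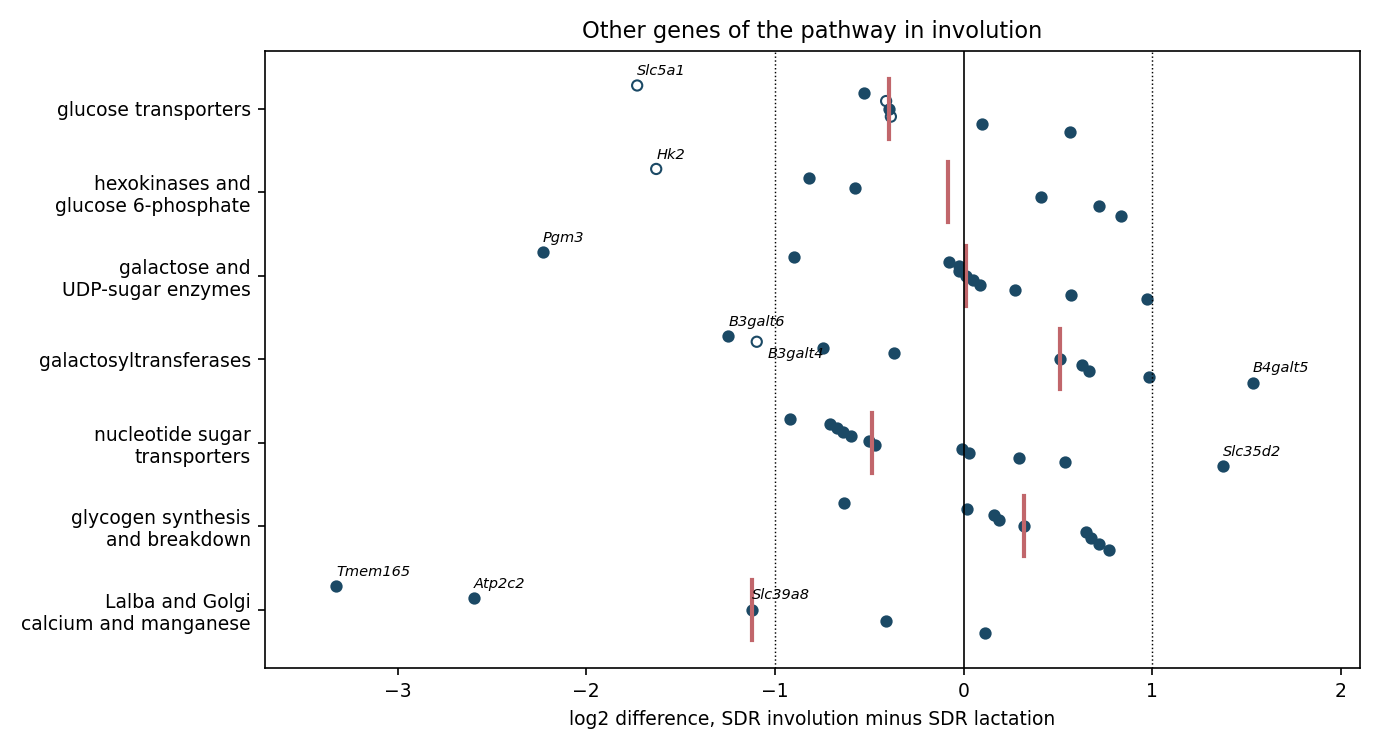
Log2 difference of SDR involution minus SDR lactation for each measured gene of the 7 pathway lists (rows), with open circles for bounds, a red bar at the list median and dotted lines at 2-fold. Tmem165 at -3.33 and Atp2c2 at -2.60 lie farthest to the left, and B4galt5 at 1.53 farthest to the right.

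Genes with the most similar pattern were sought for the 3 genes above the floor in every array that spanned at least 2-fold, by the distance between the 3 log2 differences from SDR lactation, among 9436 genes. Nearest to Slc2a1 were Kdr, an endothelial receptor for vascular growth factor (distance 0.14), Tob1 (0.17) and Cks1b (0.18). Kdr had 3286, 1956, 1701 and 597 in the order of the groups. Nearest to Ugp2 were Lrp5, a Wnt co-receptor (0.09), Mtfr1 (0.10) and Slc39a11, a zinc transporter (0.14). Nearest to B4galt1 were Tbc1d4, which regulates the traffic of the insulin-responsive glucose transporter (0.37), Olfml1 (0.38) and Acaca, which makes malonyl-CoA for fatty acid synthesis (0.40). Acaca had 23835, 25401, 16281 and 2191, which like B4galt1 was highest in heterozygous HHR, and the distances for B4galt1 were the largest of the 3. Each distance rests on 4 arrays.

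Markers of other cell types also differed between the arrays, and in bulk tissue fewer cells of a type and less RNA per cell cannot be told apart. Luminal epithelial markers had a summed signal of 60205 in SDR lactation, 56820 in the heterozygous and 71062 in the homozygous HHR array, and 118189 in involution. In involution 4 of 8 were at least 2-fold higher and 1 lower, the latter Elf5, a transcription factor of the secretory cell, with 13668 against 3420. In the lactation comparisons 0 of the 8 passed 2-fold. The 4 higher in involution were Krt8, Krt18, Krt19 and Cdh1, so the sum does not measure the secretory cells alone. The part of epithelial cell number in the lower signals of Slc2a1, Ugp2 and B4galt1 was not tested.

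Adipocyte markers at least 2-fold lower in involution numbered 2 of 6, with summed signals of 31866, 19649, 22882 and 9355, and Lep was under the floor in every array. In each HHR array 1 of the 6 was at least 2-fold lower, Fabp4, and 1 higher, and the list medians were 0.44 in heterozygous and 0.53 in homozygous HHR, so that the smaller sums there stand beside a list of which Fabp4 alone was lower. The endothelial markers had summed signals of 6510, 3823, 4322 and 4525, with 1 of 5 at least 2-fold lower in each HHR array. In involution 1 of the 5 was lower, Kdr, and 1 higher, with a list median of 0.27, above 0 although the sum was smaller. The red cell marker Hbb had 14503, 4461, 6945 and 3425. It made up most of the summed signals of the red cell list, 15171, 4957, 7386 and 3603, which were highest in SDR lactation. Alas2 of that list was also highest there. Slc4a1 went the other way in the HHR arrays, with 79.5, under the floor, in SDR lactation and 158.5 and 137.9 in heterozygous and homozygous HHR. Of 3 measured red cell markers 1 was at least 2-fold lower in heterozygous and 2 in homozygous HHR, and 2 of 2 in involution. Ahsp of that list was under the floor in every array. Slc2a1 is also known in endothelium and in red cell precursors, and the part of these cells in its differences was not tested.

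The myoepithelial markers had summed signals of 14677, 26494, 26441 and 19534, of which homozygous HHR had 3 of 6 at least 2-fold higher and 1 lower, and heterozygous HHR and involution each had 1 in either direction. The macrophage and neutrophil markers had 2517, 1986, 2703 and 6540, with 2 of 6 at least 2-fold higher in each comparison with SDR lactation, S100a8 and S100a9, beside 2 lower in heterozygous and 1 in homozygous HHR. S100a8 and S100a9 were under the floor in SDR lactation, at 75.3 and 83.2, so their folds are lower bounds. The T cell markers had 885, 618, 607 and 526, with 0 of 5 past 2-fold in each comparison with SDR lactation. The skeletal muscle list, with 3293, 4676, 6026 and 3314, held mainly Acta1, which had 3122, 4394, 5827 and 3049.6. The part of these cells in the results was not tested, nor was that of RNA quality, for which the 3′ over 5′ ratio of Gapdh was lowest in SDR lactation. The same ratio was also lowest there for actin, at 4.60, 7.86, 5.91 and 4.80, and highest there for hexokinase, at 12.5, 2.11, 6.75 and 3.60, whose 5′ probe set was under the floor in every array.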

How the data were processed

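For each of 4 arrays the authors deposited a linear intensity, the MAS5 signal (named so per the submitters' processing notes), of 31099 probe sets, 57 of them controls. The scaling was read from the values, as the mean without the lowest and highest 2% was between 500.15 and 500.17 in every array. The MAS5 version is not given in the sources, and detection calls are not used here.

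Groups were taken from the labels. Probe sets with 1 platform gene symbol (20832) were named, and sequences came from RefSeq tables of build GRCr8. The floor was the pooled 40th percentile without controls, and the probe set with the largest mean of floored log2 signals stood for its gene. Named were the 6 members, Lalba, list genes at least 2-fold different with signals above the floor, a selection of up to 4 further list genes by brightness, and the 3 nearest patterns. The 6 members, the lists and the alternatives were chosen with earlier results of these data known. Computation used python 3.11.15 and pandas 2.3.3, and the steps were tested on simulated data. The simulated differences were set in genes far above the floor, alike in all probe sets of a gene and with little noise. Signals near the floor and probe sets that disagree were thus not covered. The number of arrays limits the precision.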

Additional observations from a re-analysis of the deposited data

How the results depend on the processing

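Alternatives were median centring, quantile normalization, floors at the 25th and 55th percentiles, the floor as pseudocount, the mean of all probe sets, and probe sets without shared-probe suffixes. No probe set of the members carries such a suffix, and the mean cannot change a gene with a single probe set. Both floors left the brightest probe sets of Slc2a1, B4galt1, Ugp2 and Pgm1 as they were. Many of the recomputed differences of members were thus fixed beforehand. Of 140 recomputed differences of single members 136 stayed on the same side of 2-fold and 4 no longer passed it, all of Slc35a2. With the floor at the 55th percentile its log2 differences were -0.56 in heterozygous HHR and in involution against SDR lactation and 0.19 between the HHR arrays, so the count of members past 2-fold was 0 in heterozygous HHR and 0 between the HHR arrays. The latter count was also 0 with the pseudocount. The count of pathway list genes past 2-fold was 5 in involution (in place of 10) and 1 in homozygous HHR (in place of 2) with that floor, and 1 in homozygous HHR after quantile normalization. Among all genes, heterozygous HHR, homozygous HHR and the HHR pair had 1445, 1159 and 1188 past 2-fold with the floor at the 25th percentile and 585, 458 and 478 with the pseudocount. With a 3-fold threshold these were 214, 151 and 130, and 745 in involution. The causes were not tested, beyond the floors and thresholds being set higher or lower. Median centring moved the median log2 difference of all genes in involution from 0.08 to -0.06. No paired analysis was possible because each group has 1 array, and for the same reason no array could be left out. Signals near the floor limit what can be said of Slc35a2, and whether the upper end of the range limits Lalba was not tested.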
